A study of Mus musculus with 18 samples.

Results

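The 7 genes described here encode 5 chemokines (Cxcl1, Cxcl5, Ccl2, Ccl7 and Cxcl12), the T-cell costimulatory ligand Tnfsf9 and the NF-κB inhibitor Nfkbia. They are 7 of the 25957 genes in the count table and were read across 18 bulk BRB-seq libraries of C2C12 cells, an established mouse myoblast line. BRB-seq barcodes the cDNA of each sample before pooling. The members were chosen by name with earlier results of these libraries known, that is, from their levels and fitted changes in the comparisons below. Their own values are therefore given as a description with no p-value. Which of them the fit over all genes called is listed once and supports nothing, and adjusted p-values are given for genes outside the group.

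The libraries formed 6 groups of 3, numbered in the labels as lots and called replicates here. The labels name no edited allele or transgene in any group. Controls were collected by scraping after lysis buffer was added to the plate. The other groups were washed with PBS and given 200 µL of enzyme. The treatments were 0.25% trypsin at 37 °C for 30 s, for 3 min or for 30 min, low trypsin, in which 0.25% trypsin was removed straight after it was added and a 3 min stay at 37 °C followed, and a cold-active protease for 5 min at 4 °C with shaking. As far as the labels say, treated and control cells thus also differed in wash, incubation and harvest, and these cannot be told apart from the enzyme. Nothing says what a lot is. The p-values therefore cover the spread between these libraries alone, and that spread may be technical.

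Chemokines are small secreted proteins that bind G protein-coupled receptors and guide the movement of leukocytes and progenitor cells. Many of their genes are switched on by NF-κB, a dimeric transcription factor that IκB proteins hold in the cytoplasm until a stimulus has them degraded. IκBα, the product of Nfkbia, is itself made from an NF-κB target gene and so closes a feedback loop. Many chemokine mRNAs carry AU-rich elements, built on the pentamer ATTTA, in their 3′ untranslated regions. Some of the proteins that bind these elements speed decay. Myoblasts are known to secrete such chemokines in injured muscle.

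RefSeq promoters (GRCm38.p6, from 250 bases before to 50 bases after the gene start) matched 3 of the 7 genes, Cxcl1, Cxcl12 and Nfkbia. The κB consensus, the sequence family to which NF-κB dimers bind, was searched on both strands. It was present in 8.46% of the 32851 promoters of this length, in those of Cxcl1 and Nfkbia, and not within these letters for Cxcl12. The first match in Cxcl1 reads GGGAATTTCC. This exact word, on either strand, was in the promoters of Cxcl1 and Nfkbia and in 0.0883% of all. The promoters with a match are shown because the 2 genes share this word but had different levels across the groups. Capitals mark the κB matches. In Cxcl1 a pair of overlapping matches forms the capital run, and the first begins 71 bases before the start. In Nfkbia the match begins 29 bases before it. The matches are a description of sequence, not of binding.
Cxcl1, chr5:90890995-90891294, plus strand: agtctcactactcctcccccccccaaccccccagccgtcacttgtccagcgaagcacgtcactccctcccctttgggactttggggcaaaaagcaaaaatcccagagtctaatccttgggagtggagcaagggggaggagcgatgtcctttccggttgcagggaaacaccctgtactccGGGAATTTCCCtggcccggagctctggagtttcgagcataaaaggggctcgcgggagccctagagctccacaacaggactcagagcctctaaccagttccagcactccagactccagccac
Nfkbia, chr12:55492598-55492897, minus strand: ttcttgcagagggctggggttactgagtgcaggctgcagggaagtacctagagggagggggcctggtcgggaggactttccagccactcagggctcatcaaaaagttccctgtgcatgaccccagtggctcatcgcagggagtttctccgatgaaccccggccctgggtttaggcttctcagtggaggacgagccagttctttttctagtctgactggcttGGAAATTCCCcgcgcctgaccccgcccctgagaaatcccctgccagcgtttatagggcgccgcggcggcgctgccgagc

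The 3′ untranslated regions of all 7 mRNAs (GENCODE M21 principal isoforms on GRCm38) held at least 1 ATTTA, as did 69.3% of 9638 tested coding genes. Cxcl1 had 7 in 592 nt, a count reached by 13.4% of those genes, and Cxcl5 had 5 in 1111 nt, a count reached by 22%. Cxcl12 had 3, Ccl7, Tnfsf9 and Nfkbia 2 each, and Ccl2 1. The 30-base stretch richest in the pentamer is shown for 4 mRNAs that differ in their behaviour below, with ATTTA in capitals. Only in Cxcl1, among the 7, did such a stretch hold 4 copies. Cxcl12 had at most 2 in a stretch and the other 5 genes 1.
Cxcl1, chr5:90892606-90892635, plus strand: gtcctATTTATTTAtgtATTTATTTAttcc
Ccl2, chr11:82037205-82037234, plus strand: taatattaaacttATTTAacttattgatgt
Tnfsf9, chr17:57107603-57107632, plus strand: aactggacttggtATTTAttctgagcatag
Nfkbia, chr12:55489608-55489637, minus strand: aggaccacgttttATTTAttgtgcttttga

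Library totals lay between 1490869 and 2480690 counts. Levels are CPM, a gene's count scaled to library size with TMM factors, so a floor of 3 counts stood at 1.24 to 2.01 CPM per library, for counting error only. Myoblast markers (Myod1, Myf5, Cdh15, Des, Vgll2 and Chrna1) were all tested and summed to 1230 to 1350 CPM in control, 1370 to 1480 CPM at 30 min, 1410 to 1420 CPM at 3 min, 1230 to 1270 CPM in low trypsin and 1320 to 1430 CPM in the other 2 groups. Markers of differentiated muscle (Myog, Mymk, Mymx, Acta1, Ckm and Myh3; 4 of 6 tested) summed to 152 to 176 CPM in control, 147 to 152 at 30 s, 131 to 162 at 3 min, 112 to 141 at 30 min, 111 to 135 in low trypsin and 140 to 148 with the cold-active protease. Both sums at 30 min, the first at 3 min, and the second in low trypsin and with the protease did not overlap with control, and their part in the results below was not tested. Of 8 macrophage and monocyte markers 7 had a row and summed to 12.1 to 29 CPM, most of it Cd14 (up to 47 counts), while Ptprc, Adgre1 and Csf1r had at most 2 counts in any library. The lymphocyte, neutrophil, endothelial and adipocyte markers that had a row reached at most 3 counts each. In bulk samples, fewer cells of a type and less RNA per cell cannot be told apart.

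**Figure D1:**
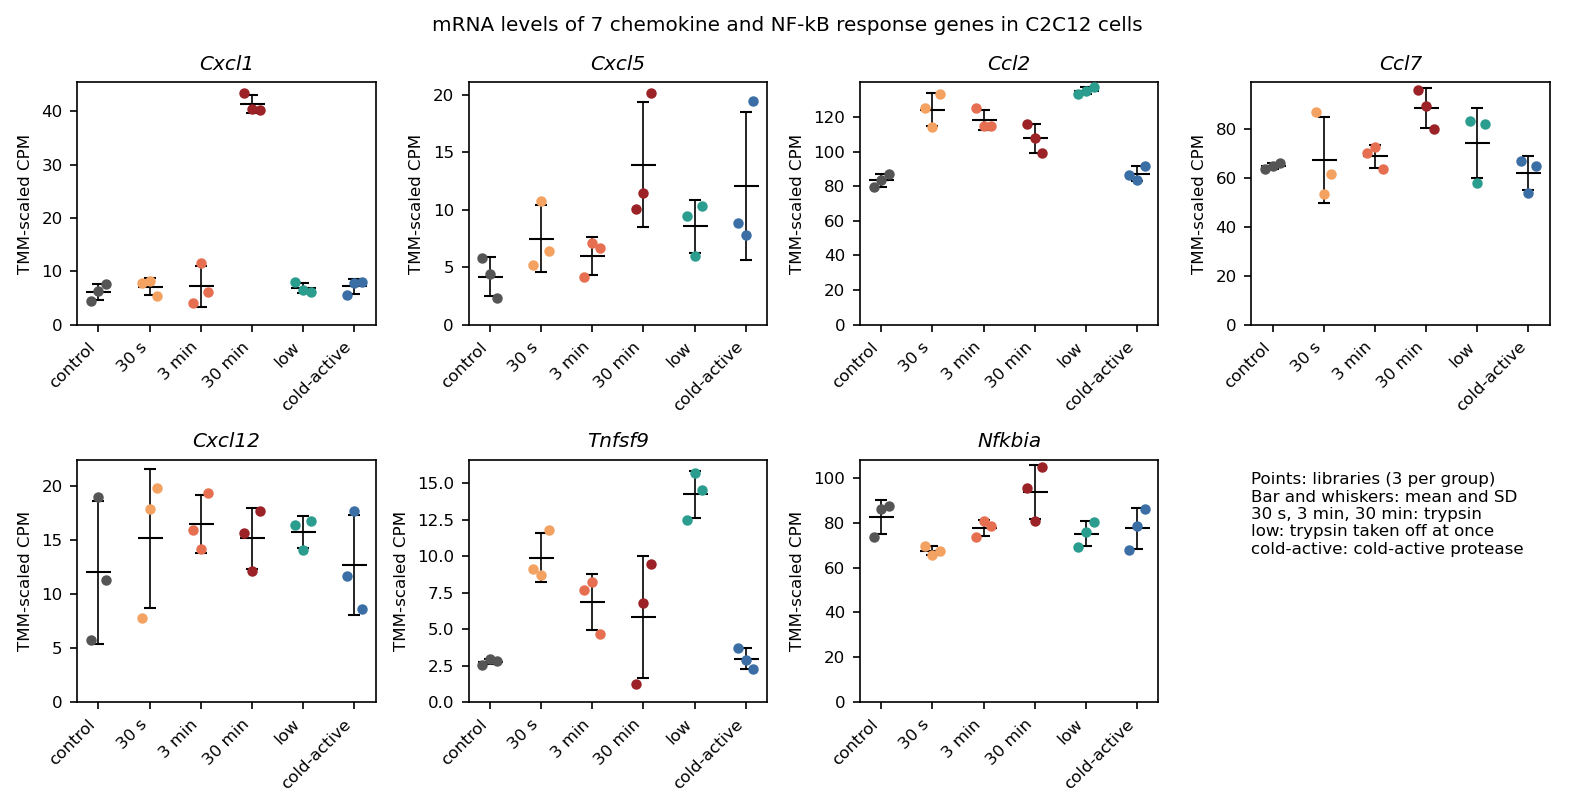
TMM-scaled CPM (y axis, from 0, with its own scale for each gene) of the 7 genes in 6 groups of 3 libraries (x axis); points are libraries, the bar is the mean and the whiskers the SD. Cxcl1 stands at 40.3 to 43.4 CPM after 30 min in trypsin and at no more than 11.5 CPM elsewhere, while Tnfsf9 and Ccl2 are highest in low trypsin.

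Among the neutrophil attractants, Cxcl1 was high after 30 min in trypsin and low in every other group. Cxcl1 (ENSMUSG00000029380, chr5:90891241-90893115, plus strand) encodes a ligand of the receptor Cxcr2. The control libraries had 4.49, 6.35 and 7.54 CPM. The 30 min libraries had 43.4, 40.4 and 40.3 CPM, from 64 to 77 counts each. No library of the other 5 groups came near them. The values were 7.82, 8.20 and 5.35 CPM after 30 s, 4.12, 11.5 and 6.03 CPM after 3 min, 7.97, 6.50 and 6.07 CPM in low trypsin, and 5.60, 7.82 and 8.04 CPM with the cold-active protease. These 4 groups overlapped with control and with each other. The fitted log2 change against control was 2.71 ± 0.26 (SE) at 30 min (means 41.4 ± 1.7 and 6.13 ± 1.5 CPM, SD, n = 3), and between 0.12 and 0.23 in the other treatments with SE of 0.34 to 0.36. Against 3 min, the 30 min value was 2.48 ± 0.26. Cxcl1 had 10 counts or more in 15 of the 18 libraries.

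Cxcl5 (ENSMUSG00000029371, chr5:90759360-90761624, plus strand), another Cxcr2 ligand, lies 129616 bases from Cxcl1 in the same chemokine cluster, and its levels were low and scattered. Control libraries had 5.78, 4.40 and 2.36 CPM, from 5 to 9 counts. The 30 min libraries had 10.1, 11.5 and 20.2 CPM, and those of the cold-active protease 8.87, 7.82 and 19.5 CPM. All 6 lay above control, and in both groups replicate 3 was far above the other 2. Low trypsin libraries had 9.46, 5.96 and 10.3 CPM and also lay above control, while those of 30 s (5.21, 10.8 and 6.43 CPM) and 3 min (4.12, 7.10 and 6.70 CPM) overlapped with it. The log2 changes against control were 1.76 ± 0.40 (SE) at 30 min, 1.51 ± 0.40 with the cold-active protease, 1.09 ± 0.42 in low trypsin, 0.86 ± 0.44 at 30 s and 0.56 ± 0.47 at 3 min. Without replicate 3 of the group the value was 1.41 at 30 min and 1.03 with the cold-active protease. At 30 s it was 0.50 without 30 s replicate 2 and 0.55 without control replicate 3, and at 3 min 0.25 without control replicate 3. In the order of the means (13.9, 12.1, 8.57, 7.47, 5.98 and 4.18 CPM for 30 min, cold-active protease, low trypsin, 30 s, 3 min and control) every pair of neighbours overlapped. Cxcl5 had 10 counts or more in 14 libraries, none of them controls.

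The monocyte attractants Ccl2 and Ccl7 are adjacent genes, 8258 bases apart on chromosome 11 with no annotated gene between them, and both encode ligands of Ccr2. Ccl2 (ENSMUSG00000035385, chr11:82035571-82037453, plus strand) was higher in each trypsin group than in control and not with the cold-active protease. Control libraries had 79.6, 83.5 and 87.2 CPM and cold-active protease libraries 86.4, 83.6 and 91.8 CPM, which overlapped. Low trypsin libraries were the highest at 133, 135 and 137 CPM. Those of 30 s had 125, 114 and 133 CPM, those of 3 min 125, 115 and 115 CPM, and those of 30 min 116, 108 and 99.0 CPM. All 12 trypsin libraries lay above all 6 of control and the cold-active protease. The log2 changes against control were 0.69 ± 0.09 (SE) in low trypsin, 0.57 ± 0.09 at 30 s, 0.50 ± 0.10 at 3 min, 0.37 ± 0.10 at 30 min and 0.06 ± 0.10 with the cold-active protease. The cold-active protease against 3 min gave -0.44 ± 0.10. Neighbours in the order 30 s, 3 min and 30 min overlapped. A gene on the opposite strand overlaps Ccl2 and was not analysed here.

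Ccl7 (ENSMUSG00000035373, chr11:82045712-82047525, plus strand) was close to control in most groups. The control libraries were tight at 63.5, 65.0 and 66.0 CPM. The 30 min libraries had 96.2, 89.6 and 80.1 CPM and all lay above them, a log2 change of 0.45 ± 0.14 (SE). After 30 s the values were 86.9, 53.3 and 61.6 CPM, after 3 min 70.1, 72.7 and 63.7 CPM, in low trypsin 83.2, 57.9 and 82.2 CPM, and with the cold-active protease 66.8, 53.9 and 64.9 CPM. Each of these groups overlapped with control, with log2 changes of -0.08 to 0.21 and SE of about 0.14. Counts of Ccl2 per count of Ccl7 stood at 1.25 to 1.32 in control and 1.21 to 1.24 at 30 min. They stood at 1.44 to 2.16 at 30 s, 1.58 to 1.81 at 3 min, 1.60 to 2.34 in low trypsin and 1.29 to 1.55 with the cold-active protease. The ratio was thus above every control library in all 9 libraries of 30 s, 3 min and low trypsin. At 30 min its highest value, 1.24, lay just under the lowest control, 1.25. The fitted log2 changes at 30 min, 0.37 ± 0.10 (SE) for Ccl2 and 0.45 ± 0.14 for Ccl7, overlapped within their SE. No fall of the ratio at 30 min is therefore read. The ratios are given without a counting error and were not tested.

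Cxcl12 (ENSMUSG00000061353, chr6:117168535-117181367, plus strand) is the ligand of Cxcr4 and of the scavenging receptor Ackr3, and acts on migrating muscle precursors. Its control libraries spread from 5.78 to 19.0 CPM (9 to 39 counts). Means of the other groups ran from 12.7 ± 4.6 CPM (SD, n = 3) with the cold-active protease to 16.5 ± 2.7 CPM at 3 min, and every group overlapped with control. The largest log2 change was 0.39 ± 0.31 (SE; 95% interval -0.22 to 1.00) at 3 min. It was 0.11 without control replicate 1, the lowest control, and 0.88 without control replicate 2, the highest. No order of the groups could be read at this depth.

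Tnfsf9 (ENSMUSG00000035678, chr17:57105325-57107757, plus strand) encodes the ligand of 4-1BB, a receptor on activated T cells. Its levels were near the floor in control, at 2.57, 2.93 and 2.83 CPM (4 to 6 counts), and with the cold-active protease, at 3.73, 2.88 and 2.30 CPM. Low trypsin libraries had 12.5, 15.7 and 14.5 CPM (25 to 31 counts). The 30 s libraries had 9.12, 8.71 and 11.8 CPM, and those of 3 min 7.66, 8.20 and 4.69 CPM. In the order low trypsin, 30 s, 3 min the libraries of neighbours did not overlap, and all 9 libraries lay above control. The fitted log2 change from 30 s to 3 min was only -0.495 ± 0.357 (SE), with an interval of -1.213 to 0.223 that includes no change. Low trypsin against 3 min gave 1.023 ± 0.337, and low trypsin was not fitted against 30 s. The order is thus a description of these libraries and was not tested. After 30 min the libraries scattered from 1.26 CPM (2 counts) to 6.81 and 9.46 CPM and overlapped with both control and 3 min. The log2 changes against control were 2.32 ± 0.39 (SE), 1.79 ± 0.42, 1.30 ± 0.46 and 1.06 ± 0.48 for low trypsin, 30 s, 3 min and 30 min, and 0.10 ± 0.53 with the cold-active protease. The value at 30 min was 1.5 without its replicate 1 and 0.59 without its replicate 3. Tnfsf9 had 10 counts or more in 10 of the 18 libraries, and in all 3 libraries of only 2 groups, 30 s and low trypsin. The noncoding gene Gm11110 overlaps Tnfsf9 on the opposite strand and had 2 to 19 counts. Since the strand used in counting is not given, reads of both cannot be told apart.

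Nfkbia (ENSMUSG00000021025, chr12:55489410-55492647, minus strand) moved little. Control libraries had 73.8, 86.0 and 87.7 CPM. The 30 min libraries had 95.5, 80.7 and 105 CPM, the highest mean, and overlapped with control. The 30 s libraries had 69.5, 65.6 and 67.5 CPM, all below control. Libraries of 3 min, low trypsin and the cold-active protease ran from 67.7 to 86.1 CPM. The log2 changes against control were -0.30 ± 0.12 (SE) at 30 s, 0.17 ± 0.11 at 30 min (95% interval -0.06 to 0.39), and -0.14 to -0.10 in the other groups. Cxcl1, whose promoter carries the same κB word, stood at 2.71 at 30 min. Any part of the word in the level of either gene was not tested.

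**Figure D2:**
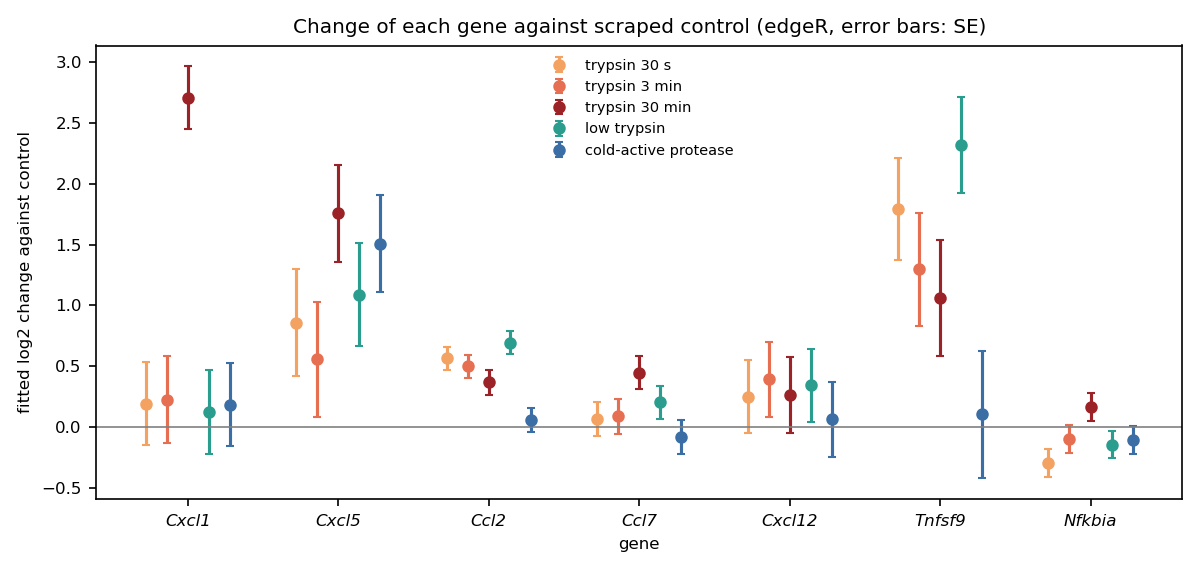
Fitted log2 change against control (y axis) for each of the 7 genes (x axis) in the 5 treatments; points are edgeR estimates and error bars the SE. Cxcl1 at 30 min (2.71) and Tnfsf9 in low trypsin (2.32) stand highest, Ccl2 is above 0 in the 4 trypsin groups, and Nfkbia stays between -0.30 and 0.17. All 5 comparisons share the control libraries.

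In the fit over all 10075 tested genes, a gene was called at an adjusted p under 0.05 (edgeR quasi-likelihood F test, Benjamini-Hochberg). Ccl2 and Tnfsf9 were called against control at 30 s, where 6.94% of all genes were, and in low trypsin, where 5.19% were. Ccl2 was called at 3 min, where 3.96% of all genes were. Cxcl1, Cxcl5, Ccl2 and Ccl7 were called at 30 min, where 4.68% were. Cxcl1 was called between 30 min and 3 min (4.03% of all genes), and Ccl2 between the cold-active protease and 3 min (3.7%). Since the members were chosen with such calls in view, nothing is read from these counts. At 30 min the calls of Ccl2, Ccl7 and Cxcl5 ended under some alternatives. That of Cxcl5 ended without 30 min replicate 3 (log2 1.41). That of Ccl2 ended without a filter (log2 0.35) and without control replicate 1 or 2 or 30 min replicate 1 or 2, with log2 changes of 0.31 to 0.36 beside 0.37. That of Ccl7 ended with DESeq2 (log2 0.45) and in 5 of 6 cases with a library dropped, all but 30 min replicate 3, with log2 changes of 0.39 to 0.46 beside 0.45. For Cxcl1 between 30 min and 3 min DESeq2 gave a log2 change of 2.50 and no adjusted p. Other alternatives added calls, from which nothing is read either. Cxcl5 was called with the cold-active protease against control without a filter or without that group's replicate 2. Between 30 min and 3 min it was called without a filter, with the 2 groups fitted alone or without 30 min replicate 1. Tnfsf9 was called at 30 min against control without 30 min replicate 1. In low trypsin against 3 min it was called with the 2 groups fitted alone.

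The rest of the pathway was examined through 10 lists of 193 other genes, of which 90 passed the filter. Like the members, the lists were chosen with earlier results of these data known, which limits what their shares can show. Against control, edgeR called 4 of the 90 (4.44%) at 30 s, 1 at 3 min, 4 at 30 min, 4 in low trypsin and 1 with the cold-active protease (1.11%, beside 0.665% of all genes). Between treatments it called 1 at 3 min against 30 s (beside 1.94% of all genes), 3 at 30 min against 3 min, 2 in low trypsin against 3 min (2.22%, beside 4.36%) and 3 with the cold-active protease against 3 min. Over all 6 groups 10 of 90 (11.1%) were called, beside 11.5% of all genes. All of these shares but that of the cold-active protease against control were under those of all genes. The median log2 change of the 90 against control was 0.08 at 30 s, 0.04 at 3 min, 0.02 at 30 min, 0.02 in low trypsin and 0.01 with the cold-active protease, beside medians of all genes within 0.01 of 0.

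**Figure D3:**
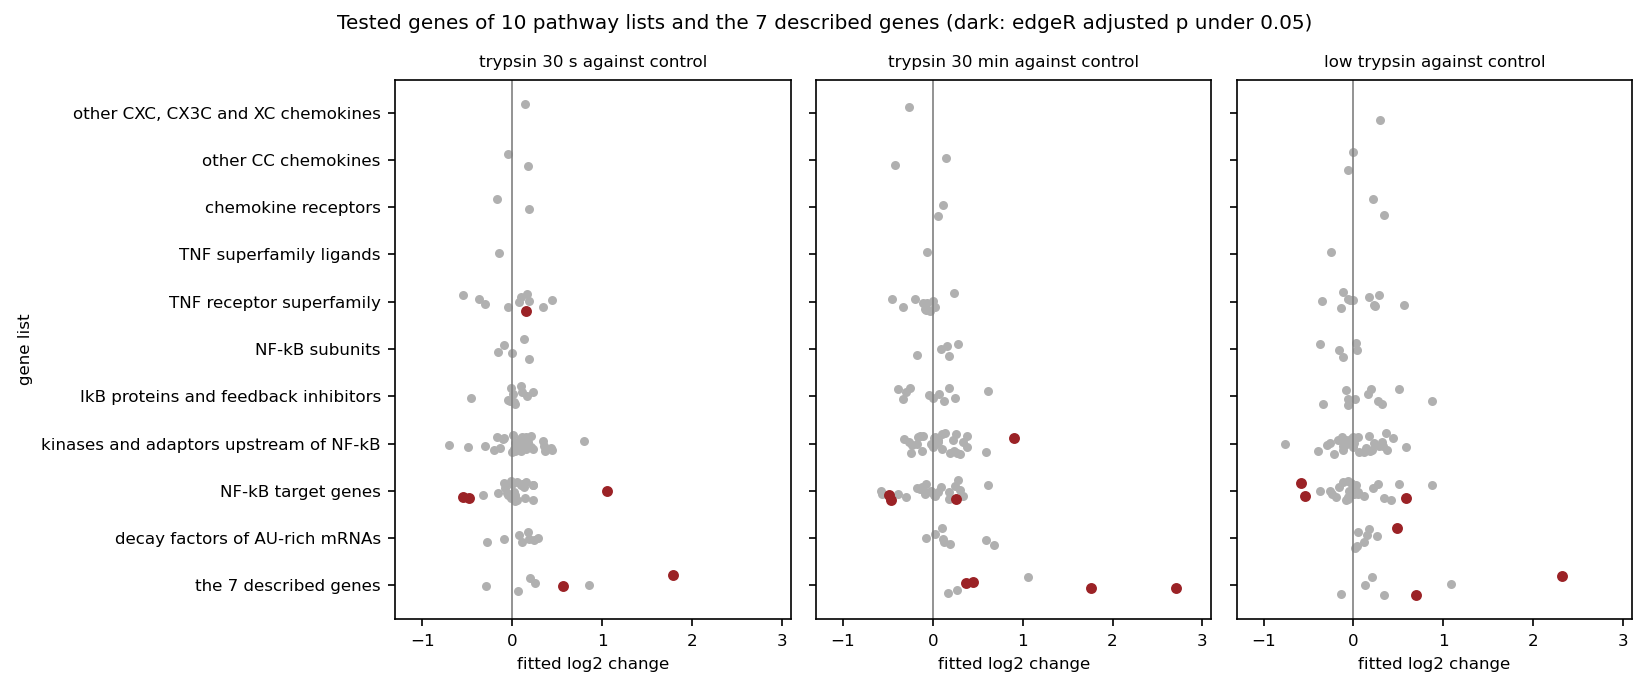
Fitted log2 change (x axis) of the tested genes of 10 pathway lists and of the 7 described genes (rows; vertical scatter only separates points) at 30 s, at 30 min and in low trypsin against control; dark points have an edgeR adjusted p under 0.05, and a gene in 2 lists appears in both. Called pathway genes are few and lie on both sides of 0. At 30 min only Cxcl1 and Cxcl5 lie beyond a log2 change of 1.5. The 7 described genes were chosen with these results known. Nothing is therefore read from their dark points or from the size of their changes beside the lists.

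Other chemokines and most receptors were scarcely detected. Of 33 further chemokine genes 3 were tested (Cx3cl1, Ccl9 and Ccl25), and none was called in any comparison (edgeR; 1 of their 27 gene and comparison pairs had an unadjusted p under 0.05, and DESeq2 called none). Cxcl2 and Cxcl10 had at most 1 count and Ccl5 at most 2, and Ccl20 was not analysed here. Among 23 chemokine receptors, Ccr2, the receptor of Ccl2 and Ccl7, lay under the filter with the others that had a row (at most 14 counts each), and Cxcr2 was not analysed here. Cxcr4 and Ackr3, which both bind Cxcl12, were tested. Cxcr4 went from 6.96 ± 3.1 CPM (SD, n = 3) in control to between 4.97 ± 1.8 and 8.79 ± 3.7 CPM, and Ackr3 from 21.4 ± 5.3 to between 20.8 ± 4.3 and 26.0 ± 2.3 CPM. Neither was called (edgeR; 0 of 18 pairs at an unadjusted p under 0.05, and none by DESeq2).

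Among receptors of the TNF superfamily, Tnfrsf9, the receptor of the Tnfsf9 ligand, had at most 6 counts and was not tested. Of the 11 tested, 1 rose at 30 s (9.09%, beside 6.94% of all genes) and none was called against control elsewhere (edgeR; 6 of 55 pairs against control at an unadjusted p under 0.05, and 2 called by DESeq2). Tnfrsf12a, the receptor of the cytokine TWEAK, was abundant. Its libraries had 941, 892 and 916 CPM in control, 1050, 986 and 1020 CPM at 3 min and 825, 865 and 888 CPM at 30 min. It fell from 3 min to 30 min by 0.24 ± 0.05 on the log2 scale (SE; edgeR adjusted p = 0.000615). Its rise at 30 s (log2 0.16 ± 0.05, edgeR adjusted p = 0.0415) ended in 5 of 6 cases when a library was dropped (0.215 at most, for 30 s replicate 2) and without a filter (0.133), and held when control replicate 1 was dropped. Tnfrsf1a, the main TNF receptor, did not pass, with log2 changes of -0.04 to 0.09 against control.

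The 5 NF-κB subunit genes were not called in any comparison (edgeR; 1 of 45 pairs at an unadjusted p under 0.05, and none by DESeq2). Rela had 68.0 ± 3.8 CPM (SD, n = 3) in control and 70.5 to 81.0 CPM in the treatments, Nfkb1 67.7 ± 7.8 and 68.1 to 73.6 CPM, and Nfkb2 55.4 ± 5.6 and 48.2 to 54.4 CPM. Relb had no more than 15 counts. Of 11 tested IκB proteins and feedback inhibitors none was called (edgeR; 6 of 99 pairs at an unadjusted p under 0.05, and none by DESeq2). Nfkbiz, an atypical IκB protein, had log2 changes of 0.61 ± 0.27 (SE) at 30 min and 0.51 ± 0.27 in low trypsin. Tnfaip3, the ubiquitin-editing enzyme A20, had -0.39 ± 0.32 at 30 min, and Nfkbie had 0.87 ± 0.47 in low trypsin from at most 20 counts. Bcl3 had at most 2 counts.

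Of 31 kinases and adaptors upstream of NF-κB, 1 rose at 3 min, 1 at 30 min and 1 with the cold-active protease against control, and none fell. Each is 3.23% of the list, beside 3.96%, 4.68% and 0.665% of all genes. Chuk, the IKKα kinase, had 28.9, 30.8 and 33.0 CPM in control and 58.9, 51.9 and 42.9 CPM at 3 min, with no overlap. It rose by 0.73 ± 0.16 on the log2 scale (SE; edgeR adjusted p = 0.00119). Map3k14, the NF-κB-inducing kinase of the noncanonical route, had 13.5, 18.1 and 13.7 CPM in control and 29.5, 28.3 and 27.7 CPM at 30 min. It rose by 0.91 ± 0.22 (edgeR adjusted p = 0.00563). Both calls held with each library left out. Ube2n, a ubiquitin-conjugating enzyme, rose with the cold-active protease from 31.1 ± 4.4 to 49.1 ± 1.3 CPM (SD, n = 3; log2 0.66 ± 0.16, edgeR adjusted p = 0.0194), a call that ended in 5 of 6 cases when a library was dropped (0.232 at most, for control replicate 3) and held when control replicate 2 was dropped. Against 3 min it rose by 0.67 ± 0.16 (edgeR adjusted p = 0.00486, and 0.134 without 3 min replicate 2).

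Of 27 tested NF-κB target genes, 1 rose and 2 fell at 30 s, 1 rose and 2 fell at 30 min, and 1 rose and 2 fell in low trypsin. Each is 11.1% of the list, beside 6.94%, 4.68% and 5.19% of all genes. None was called at 3 min or with the cold-active protease against control, beside 3.96% and 0.665% of all genes. Of their 135 gene and comparison pairs against control, edgeR called 9 and DESeq2 called 6. In edgeR, 20 of these pairs had an unadjusted p under 0.05. Plau, the urokinase plasminogen activator, rose at 30 s. Its libraries had 41.7, 34.7 and 28.3 CPM in control and 71.2, 68.7 and 75.5 CPM at 30 s, and were back at 39.5, 30.6 and 29.5 CPM at 3 min. The log2 change at 30 s was 1.06 ± 0.15 (SE; edgeR adjusted p = 3.86e-07), and that from 30 s to 3 min -1.11 ± 0.16 (edgeR adjusted p = 1.58e-06). In low trypsin Plau had 53.3, 48.7 and 52.8 CPM and rose by 0.59 ± 0.16 against control and by 0.64 ± 0.17 against 3 min (edgeR adjusted p = 0.0152 and 0.0103). The call against control ended in 4 of 6 cases when a library was dropped: control replicate 3 (0.190), control replicate 2, and low trypsin replicate 1 or 3. The call against 3 min ended in 3 of 6, dropping 3 min replicate 2 (0.0844) or 3, or low trypsin replicate 1.

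Ptgs2, the inducible cyclooxygenase, had 45.3, 53.0 and 38.9 CPM at 3 min and 18.2, 25.7 and 27.1 CPM at 30 min. It fell between them by 0.95 ± 0.18 on the log2 scale (SE; edgeR adjusted p = 0.00012). In control it had 39.8, 30.3 and 37.2 CPM. It was also lower with the cold-active protease than at 3 min (log2 -0.62 ± 0.16, edgeR adjusted p = 0.0128), a call that ended without 3 min replicate 2 (0.214) or cold-active protease replicate 1 or 2. Ier2, an immediate early gene, fell at 30 min by 0.49 ± 0.13 against control and by 0.55 ± 0.14 against 3 min (edgeR adjusted p = 0.0178 and 0.0071). The first call ended without control replicate 2 (0.104) or 30 min replicate 1, the second without 3 min replicate 1 or 3 (up to 0.0898) or 30 min replicate 1. Sod2, mitochondrial superoxide dismutase, rose at 30 min from 155 ± 7.9 to 185 ± 9.2 CPM (log2 0.26 ± 0.08, edgeR adjusted p = 0.0441). That call ended with DESeq2 (0.107), with the trend in mRNA length removed (0.122), without a filter (0.135), with the 2 groups fitted alone (0.0734), and without control replicate 2 or 3 or 30 min replicate 2 or 3 (up to 0.188).

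Ccnd1, cyclin D1, had widely spread controls at 319, 538 and 448 CPM, against 285 to 312 CPM in low trypsin, 292 to 330 CPM at 30 s and 278 to 339 CPM at 30 min. It fell by 0.54 ± 0.10, 0.48 ± 0.09 and 0.47 ± 0.10 on the log2 scale (SE; edgeR adjusted p = 5.64e-05, 0.000221 and 0.000778). Without control replicate 2 these were -0.36, -0.30 and -0.29, and at 30 min the call ended (0.0879). With DESeq2 the calls at 30 s and 30 min ended (0.0515 and 0.0979). Gadd45b, a stress-inducible survival gene, had 62.3, 63.0 and 89.6 CPM in control and fell by 0.55 ± 0.14 at 30 s and by 0.58 ± 0.14 in low trypsin (edgeR adjusted p = 0.00666 and 0.00561). Without control replicate 3, the highest library, the values were -0.34 and -0.38 and both calls ended (0.269 and 0.222). No other NF-κB target passed against control. Vcam1, an adhesion molecule, had 78.9 ± 1.6 CPM (SD, n = 3) in control and 75.7 to 81.0 CPM in the treatments, Csf1, the macrophage growth factor, 316 ± 19 and 319 to 341 CPM, and Ier3 80.4 ± 9.4 and 69.4 to 89.1 CPM.

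Some targets lay under the filter, with counts too low for a test. Il6, a secreted cytokine of myoblasts among many cells, had 0 counts in the libraries of control, 3 min and the cold-active protease, 1, 1 and 0 at 30 s, 3, 1 and 0 in low trypsin and 5, 2 and 4 at 30 min. Lif, a cytokine of the same family, had 3, 7 and 9 counts in control and 1, 1 and 2 counts at 30 min. Birc3 had at most 1 count. Icam1 was not analysed here.

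Of 8 factors that bind AU-rich mRNAs, 1 rose in low trypsin against control (12.5% of the list, beside 5.19% of all genes). None of the 8 was called at 30 s, 3 min, 30 min or with the cold-active protease against control. Of all genes, 6.94%, 3.96%, 4.68% and 0.665% were called there. DESeq2 called none of the 40 pairs of the list against control. Zfp36l2, the gene that rose, had 82.2, 83.9 and 69.6 CPM in low trypsin. It had 45.3, 54.6 and 44.9 CPM at 3 min and 33.4, 71.8 and 59.4 CPM in control. In low trypsin it rose against 3 min by 0.69 ± 0.15 (SE; edgeR adjusted p = 0.0013). Against control the log2 change of 0.48 ± 0.14 (edgeR adjusted p = 0.0338) was 0.26 without control replicate 1 (adjusted p = 0.372), and that call also ended without control replicate 3 or low trypsin replicate 1 or 2, and with DESeq2. It was higher with the cold-active protease than at 3 min as well (0.53 ± 0.15, edgeR adjusted p = 0.0318), a call that ended with DESeq2 (0.0501), with library totals only (0.0615) and in 4 of 6 cases when a library was dropped, which were replicate 1 or 3 of 3 min and replicate 1 or 2 of the protease (up to 0.167). Zfp36, the decay factor tristetraprolin, went from 15.8 ± 3.4 to 25.5 ± 4.6 CPM (SD, n = 3) at 30 min and did not pass (log2 0.68 ± 0.24, edgeR adjusted p = 0.094).

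Likeness was measured as the root mean square difference of group mean log2 CPM over the 6 groups, each gene centred on its own mean, among 8928 tested genes with at least 10 CPM in their highest group. Nearest to Cxcl1 were Depp1 (0.14), Hes1 (0.25) and Dusp1 (0.33). Their CPM went from 1.22 ± 0.22, 52.8 ± 8.7 and 13.8 ± 3.6 in control to 13.0 ± 2.8, 320 ± 25 and 55.1 ± 9.6 at 30 min (SD, n = 3). Depp1 had 2 to 7 counts in every library outside 30 min. A prior count of 2 was added before the log2, which shrinks differences at such levels. At 30 min against control the fitted log2 change was 3.355 ± 0.468 (SE) for Depp1 and 2.581 ± 0.102 for Hes1. It was 1.957 ± 0.216 for Dusp1 and 2.71 for Cxcl1. These genes, like those named below, were picked by likeness in the same group means. Their large changes at 30 min thus follow from the search and support nothing. Nearest to Tnfsf9 were the pseudogenes Rps2-ps10 (0.13) and Gm13339 (0.19), whose reads may be shared with near-identical copies, and Crtc2 (0.19). Crtc2, a CREB coactivator, had 16.7 ± 2.2 CPM in control, 44.6 ± 2.7 CPM at 30 s, 26.3 ± 0.81 CPM at 3 min and 47.9 ± 4.4 CPM in low trypsin. Nearest to Cxcl5 were Col12a1 (0.22), Firre (0.23) and Snhg20 (0.24), to Ccl2 Atxn2 (0.04), Tdrd7 (0.06) and Gpkow (0.06), and to Ccl7 Pde5a (0.04), Myo9a (0.05) and Aen (0.06). Nearest to Cxcl12 were Morc3, Ankrd26 and Rtl8b, and to Nfkbia Vamp2, Abcd3 and Tab3, at 0.03 to 0.05. The median difference over all searched genes was 0.178 for Nfkbia and 0.922 for Cxcl1, so these small values are read against different backgrounds.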

How the data were processed

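RNA of 18 libraries was measured by BRB-seq. The submitters' processing notes name GRCm38 and, in no order, DESeq2 1.28.1, featureCounts 2.0.1, UMI-tools 1.0.1, HISAT2 2.1.0, cutadapt 2.6 and Trim Galore 0.6.6. Settings and counting strand are not given there. Gene counts were used as the authors deposited them. The authors' table named TPM held the CPM of these counts in all of its 467226 values (within 1e-06), and the deposited normalized signal equalled counts over a size factor; neither entered a test.

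The counts were fitted in edgeR 4.0.16 (R 4.3.3) with TMM scaling, filterByExpr by group and all 18 libraries in a single fit without covariate. The quasi-likelihood F test was two-sided with Benjamini-Hochberg adjustment over 10075 genes. SE is the log2 change over the root of F. At 3 against 3 libraries the smallest exact permutation p is 0.1, so calls rest on the model. Alternatives were RLE, upper-quartile and no scaling, other filters, DESeq2 1.42.0, pairwise fits, a replicate block, removal of the length trend and leaving out libraries.

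The members and lists were chosen with earlier results of these data known. Genes named outside the 7 were, per list and comparison, the up to 4 called genes with the smallest p, 27 genes always named, and the 3 nearest genes per member.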

Additional observations from a re-analysis of the deposited data

How the results depend on the processing

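Numbers of pathway genes called kept within 1.5 times under most alternatives. At 3 min against control the count of 1 became 2 with library totals only, without a filter, with DESeq2 and with the length trend removed. At 30 min against control it was 2 in place of 4 with DESeq2, with the cold-active protease against control 2 in place of 1 without a filter, and in low trypsin against 3 min 4 in place of 2 with library totals only. With 1 library left out the counts ran from 2 to 4 at 30 s, 1 to 2 at 3 min, 2 to 4 at 30 min, 1 to 3 in low trypsin and 0 to 1 with the cold-active protease against control. Between treatments they ran from 1 to 2 (3 min against 30 s), 2 to 3 (30 min against 3 min), 1 to 2 (low trypsin against 3 min) and 1 to 3 (cold-active protease against 3 min), and from 9 to 11 over the 6 groups. The cause was not tested. A group with a library left out keeps 2.

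Of 688 alternative values of the 7 genes' log2 changes, 655 stayed within 1 SE and 33 moved further; none of the called values changed sign. Removing the length trend gave Ccl2 0.74 at 30 s and 0.73 at 3 min, and turned its value in low trypsin against 3 min, not a call, from 0.20 to -0.02. The replicate block left every pathway count as it was (4, 1, 4, 4 and 1 against control, 10 over the 6 groups). Deviations from the group means correlated at -0.09 to 0.09 over 6916 genes between samples of the same lot number. Between samples of other numbers they correlated at -0.096 to 0.108. At most 5 of 6 libraries of a comparison correlated best with their own number, for the cold-active protease against control. Such weak correlations in groups of 3 cannot tell whether lots share more than a number. Levels under 10 counts (Tnfsf9 and Cxcl5 in control) limit the precision of their changes.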
